A study of Mus musculus with 12 samples.

Results

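The Schlafen genes described here are Slfn1, Slfn2, Slfn4, Slfn5, Slfn8 and Slfn9, found by their symbols among the 56748 named genes of the count table. All 6 were present, and all 6 passed the filter on low counts over the 4 groups. Slfn1 did not pass it when only the KO groups or only the PBS groups were kept. They were measured by RNA sequencing in macrophages (BMDMs) that were differentiated from mouse bone marrow over 7 days, in medium conditioned by L929 cells, which secrete macrophage growth factor. The marrow came from mice of strain C57BL/6N that lacked Alpk1 (genotype Alpk1-/-, here KO) or carried it (WT). The product of Alpk1 is a kinase that binds ADP-Hep, a metabolite of Gram-negative bacteria, and activates NF-kB by way of TIFA. For 4 h the cells of each genotype were given PBS or 100 µM ADP-Hep, forming KO ADP-Hep, KO PBS, WT ADP-Hep and WT PBS groups of 3 libraries each. The labels do not give the Alpk1 exons removed, whether the mice were littermates, or whether separate animals or cultures stand behind the libraries of a group. P-values thus measure the spread between libraries, which may be technical.

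Schlafen proteins share an N-terminal core domain, and the mouse family is held in one gene cluster. Short members consist of little more than the core, intermediate members carry an added stretch, and long members end in a helicase-like domain. Several of the genes are induced by type I interferon. Members are known for restraint of proliferation in lymphoid and myeloid cells, and some cut or bind transfer RNA, shown for human SLFN11 and for rat Slfn13.

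On mm10, with the GENCODE mouse release 21 annotation, the 6 members lay on chromosome 11 within 238.9 kb (chr11:82951349-83190216). Slfn5, Slfn2, Slfn1 and Slfn4 were on the plus strand, and Slfn9 and Slfn8 on the minus strand. By the longest open reading frame of their transcripts, Slfn1 (337 codons) and Slfn2 (378 codons) were short, Slfn4 (602 codons) intermediate, and Slfn5 (884 codons), Slfn8 and Slfn9 (910 codons each) long. The open reading frames of Slfn8 and Slfn9 were 92.7% identical. The same identity, 92.7%, was found between Slfn4 and its neighbour Slfn3, which is outside the 6. The transcribed pseudogene Slfn10-ps stood between Slfn8 and Slfn2.

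Reads from near-identical copies can be split or lost by the counting, whose settings are unknown here. Of all 50-base words in its exons, Slfn8 shared 14.6% with another gene, Slfn9 11.5% and Slfn4 10.8%, whereas Slfn2 shared 4.27%, Slfn5 3.37% and Slfn1 0.606%. At 100 bases these shares were 3.39% for Slfn8, 3.71% for Slfn9 and under 0.3% for the other 4 members. The main partner of both Slfn8 and Slfn9 was Slfn10-ps, and that of Slfn4 was Slfn3 at 50 bases. Counts of these genes are therefore uncertain to the extent that reads fell in the shared stretches. The antisense gene Slfn5os shares 559 exon bases with Slfn5 and had 3 counts over the 12 libraries.

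**Figure D1:**
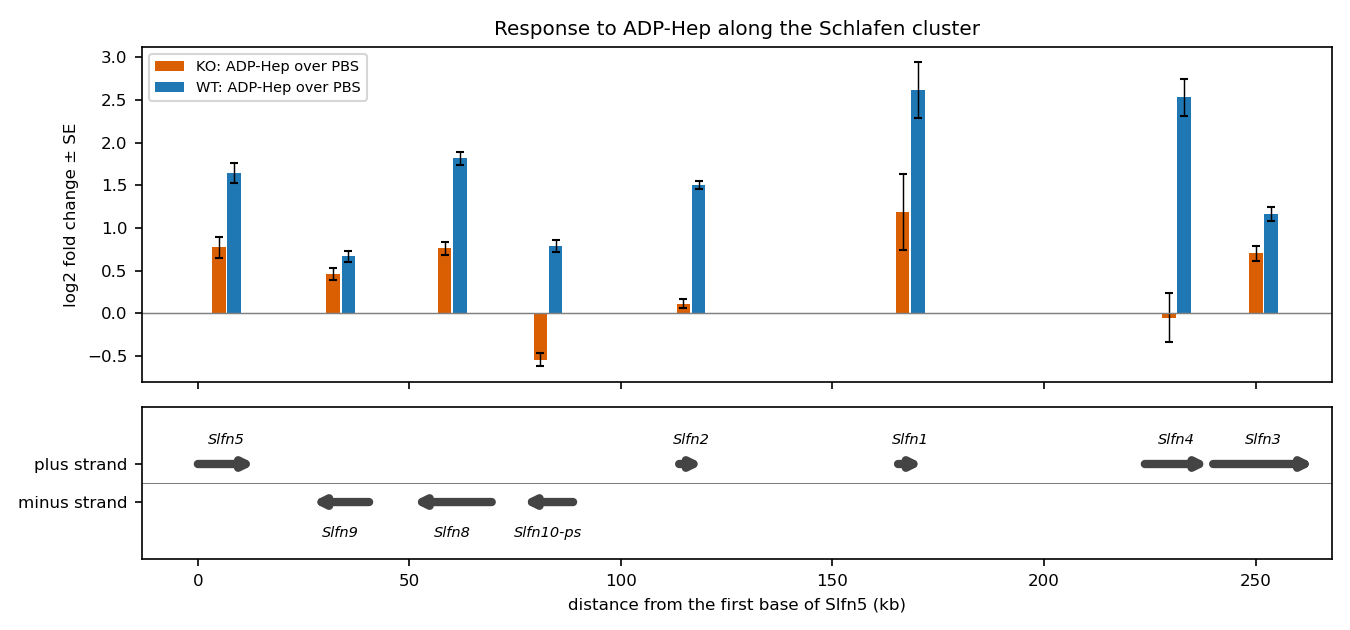
Response to ADP-Hep along the gene cluster: the upper panel plots the log2 fold change of ADP-Hep over PBS in KO cells (orange) and WT cells (blue), bars with SE (n = 3 libraries a group), and the lower panel the genes as arrows pointing in the direction of transcription, against the distance in kb from the first base of Slfn5. Every WT bar is positive, from 0.67 for Slfn9 to 2.62 for Slfn1, whereas KO bars run from -0.54 for Slfn10-ps to 1.19 for Slfn1.

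Promoter windows were searched for 3 short motifs, because the family is known to respond to interferon. All 6 members had a RefSeq window (GRCm38.p6) of 300 bases, 250 before and 50 after the transcript start. The core of the interferon-stimulated response element, read as GAAA, 2 bases of any kind and GAAA on either strand, was found in 3 of 6 members, Slfn5, Slfn8 and Slfn9. It was found in 3.99% of 27025 genes with such a window and in 13 of 27 genes with a window (48.1%) of a list of interferon-stimulated genes. Upstream sequences are shown for Slfn8 (chr11:83020811-83021060, minus strand) and Slfn9 (chr11:82991831-82992080, minus strand), near-identical genes whose responses differed, and for Slfn2 (chr11:83064862-83065111, plus strand), the most abundant member, which held none of the 3 motifs. For Slfn5, whose upstream window overlaps an annotated exon of the gene, only the site is shown (chr11:82951937-82951966, plus strand). Sequences run 5′ to 3′ on the strand of the gene, and capitals mark the response element, in Slfn8 and Slfn9 as its reverse complement.
Slfn8: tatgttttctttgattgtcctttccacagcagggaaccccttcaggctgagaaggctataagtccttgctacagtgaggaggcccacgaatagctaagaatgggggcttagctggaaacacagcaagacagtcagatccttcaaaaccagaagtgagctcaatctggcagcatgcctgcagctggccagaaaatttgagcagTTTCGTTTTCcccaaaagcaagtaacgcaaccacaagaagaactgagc
Slfn9: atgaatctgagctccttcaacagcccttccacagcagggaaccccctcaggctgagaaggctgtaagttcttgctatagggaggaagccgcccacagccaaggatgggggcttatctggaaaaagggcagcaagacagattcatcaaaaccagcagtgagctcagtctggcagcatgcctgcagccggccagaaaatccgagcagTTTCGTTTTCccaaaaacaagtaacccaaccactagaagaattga
Slfn2: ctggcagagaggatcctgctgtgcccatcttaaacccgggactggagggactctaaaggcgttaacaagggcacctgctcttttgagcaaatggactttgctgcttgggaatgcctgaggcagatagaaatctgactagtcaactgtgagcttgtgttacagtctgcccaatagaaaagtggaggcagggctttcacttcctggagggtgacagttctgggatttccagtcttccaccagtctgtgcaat
Slfn5: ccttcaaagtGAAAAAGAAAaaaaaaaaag

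In Slfn8 the match lay at bases -48 to -39 from the transcript start, and in Slfn9 at bases -45 to -36, with the same letters, GAAAACGAAA. From another RefSeq transcript start of Slfn8 the same match lay at bases -136 to -127. In Slfn5 it lay at bases -155 to -146 and read GAAAAAGAAA. The upstream windows of Slfn8 and Slfn9 were 85.1% identical, against 51.8 to 64.2% for the other pairs of members. The gamma-activated site core TTCNNNGAA was found in 0 of 6 members and in 9.55% of all genes. The kB core, read as GGG, 5 bases of any kind and CC, was found in 2 of 6, Slfn1 and Slfn9, and in 53.5% of all genes. These matches are descriptions of short windows and say nothing of binding.

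Total counts ran from 16110654 to 31333973 per library. The rows of the table used held 12307826 to 25742912 of them, since the KO columns were out of step with the gene names further down. All Schlafen genes lay in the rows used. One KO ADP-Hep column matched no label by number and was kept in its group without a replicate number. Alpk1 reads remained in KO cells, at 19.2 to 22.5 CPM (read counts scaled to a common library size by TMM) in KO ADP-Hep and 52.3 to 55.3 CPM in WT ADP-Hep libraries. With PBS they stood at 20.3 to 22.3 CPM in KO and 25.9 to 32.1 CPM in WT libraries. The macrophage markers, such as Adgre1, Csf1r and Lyz2, summed to 25020 to 29766 CPM over the 12 libraries.

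Levels between genes were compared as CPM per kb of exon. Slfn2 was the most abundant member in every group, at 102 ± 7.57 CPM per kb in KO ADP-Hep, 94.0 ± 4.54 in KO PBS, 332 ± 12.1 in WT ADP-Hep and 117 ± 3.50 in WT PBS libraries (mean ± SD, n = 3). Slfn5 was second in every group, at 32.9 ± 4.40 CPM per kb in KO ADP-Hep, 19.2 ± 2.53 in KO PBS, 71.3 ± 6.68 in WT ADP-Hep and 22.9 ± 1.31 in WT PBS. Neither overlapped its neighbour in the order.

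Slfn8 and Slfn9 changed places between groups. In WT ADP-Hep cells Slfn8 stood above Slfn9, at 33.1 ± 3.00 against 19.6 ± 2.17 CPM per kb. Slfn9 stood above Slfn8 in the other 3 groups, with 19.2 ± 0.530 against 16.0 ± 1.24 CPM per kb in KO ADP-Hep, 14.0 ± 0.992 against 9.41 ± 0.824 in KO PBS and 12.4 ± 0.577 against 9.40 ± 0.443 in WT PBS. The libraries of the pair did not overlap in any group. Slfn1 and Slfn4 were lowest, between 0.179 and 1.37 CPM per kb on average, and overlapped each other in 3 of 4 groups. In KO ADP-Hep cells Slfn1 stood above Slfn4 with no overlap, at 0.422 ± 0.143 against 0.241 ± 0.0350 CPM per kb. This order rests on few counts. The lowest Slfn1 library, with 10 counts, stood at 0.267 and the highest Slfn4 library, with 25 counts, at 0.265 CPM per kb.

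**Figure D2:**
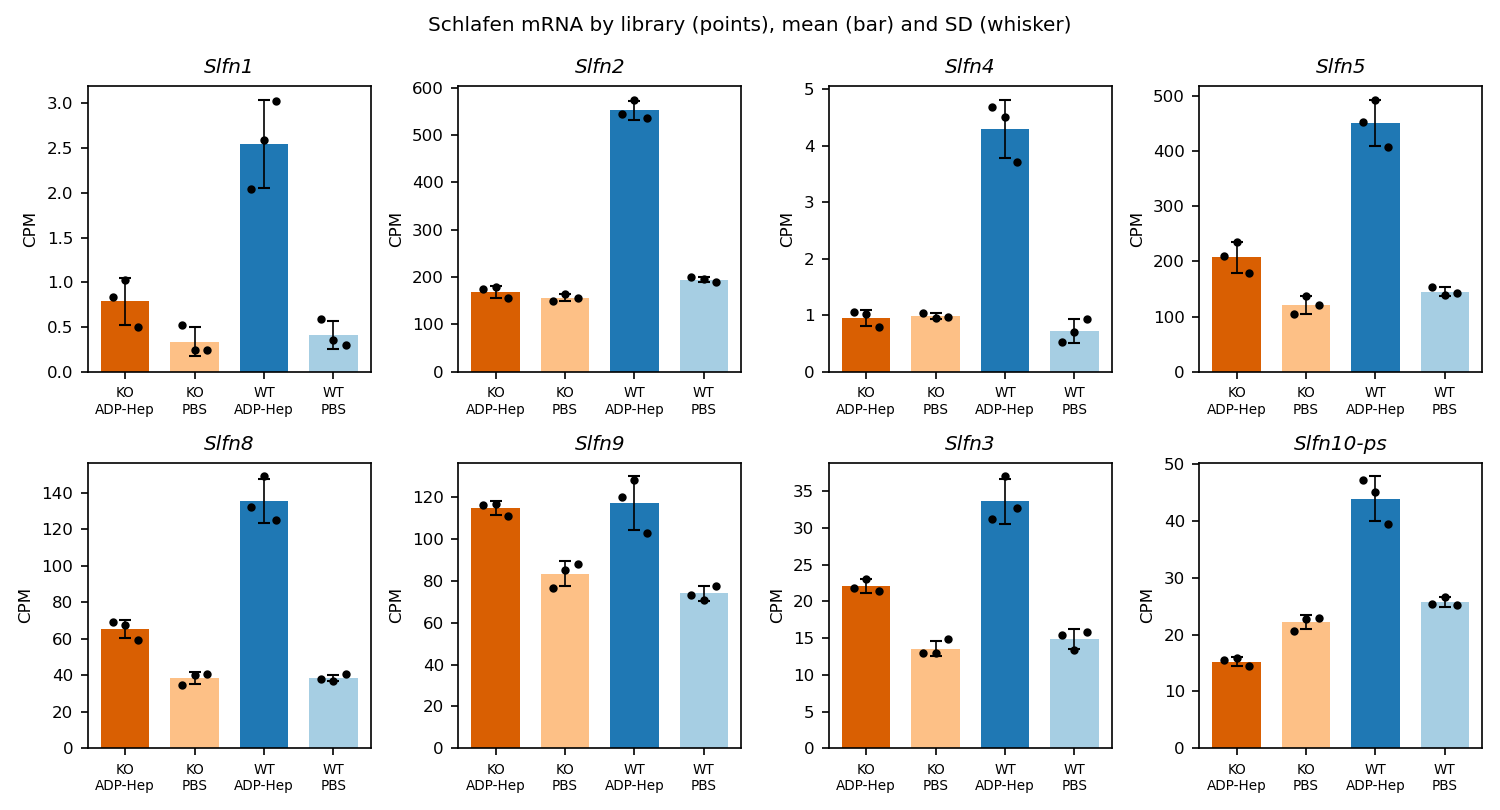
CPM of each Schlafen gene in KO ADP-Hep, KO PBS, WT ADP-Hep and WT PBS libraries: points are libraries, bars means and whiskers SD (n = 3), each panel with its own axis from 0. In every panel the WT ADP-Hep libraries stand above those of WT PBS; for Slfn9 they overlap those of KO ADP-Hep.

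With ADP-Hep, 4 members rose in KO cells and all 6 in WT cells. Slfn1, Slfn5, Slfn8 and Slfn9 made up the 4 of 6 members called higher in KO cells (edgeR quasi-likelihood test, Benjamini-Hochberg adjusted p under 0.05 over 12261 genes), against 13.7% of all genes tested. In WT cells all 6 were called higher, against 31.9% of all genes, and in all 6 the ADP-Hep libraries lay above the PBS libraries with no overlap, as they did for 32.7% of all genes. The members' median log2 change was 0.61 in KO cells and 1.73 in WT cells; over all genes it was 0.01 in KO cells and -0.01 in WT cells. The interaction, the WT response minus the KO response, was called positive for 4 of 6 members, Slfn2, Slfn4, Slfn5 and Slfn8, and for 24.6% of all genes. Both responses enter it, so the 3 results share libraries. Slfn1 was tested in KO cells only because the filter also saw the WT ADP-Hep libraries, where it was highest. Its place in these counts is therefore not independent of its WT ADP-Hep level.

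The split of all calls depended on scaling. In the KO response 1678 genes were called higher and 1870 lower, but 2360 and 1483 with library totals as the only scaling. For the WT response these counts were 3914 higher and 3871 lower, against 2990 and 4927 with library totals. The interaction had 3018 positive and 3053 negative calls, against 2020 and 4507. Library totals shifted the median of all genes to 0.05 in the KO response, -0.12 in the WT response and -0.16 in the interaction (log2). The 6 WT increases and the 4 positive interactions were called under that scaling as well.

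**Figure D3:**
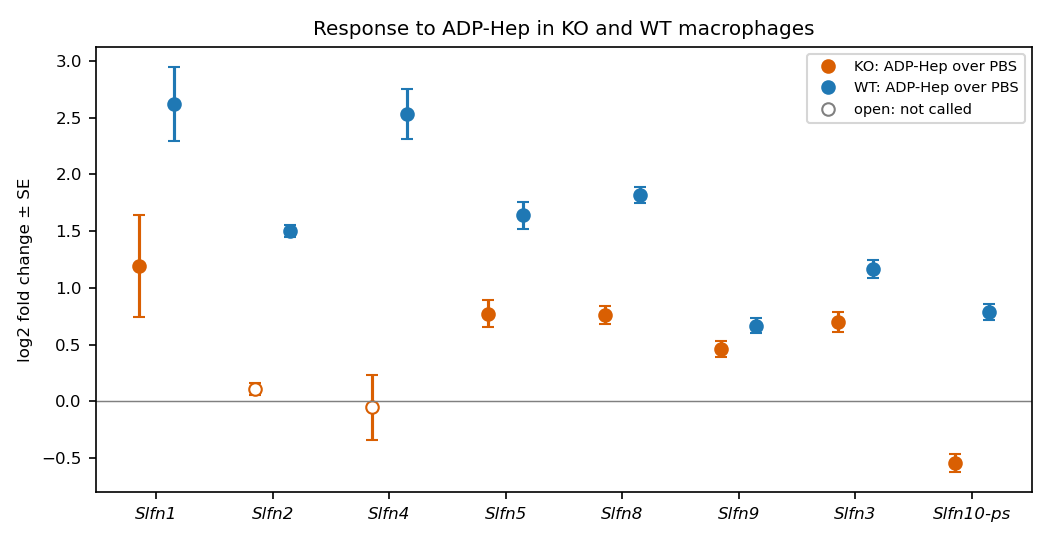
Log2 fold change of ADP-Hep over PBS with its SE for each gene, in KO cells (orange, left of each pair) and WT cells (blue, right), from 3 libraries a group; open symbols did not pass the test. Slfn2 and Slfn4 lie near 0 in KO cells, at 0.11 and -0.05, and at 1.504 and 2.53 in WT cells.

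Among the short members, Slfn2, which in mice keeps T cells and monocytes quiescent, had the smallest p of the interaction among the 6. It had 174, 178 and 155 CPM in KO ADP-Hep libraries, against 149, 164 and 156 CPM in KO PBS libraries. In WT cells it had 545, 575 and 536 CPM with ADP-Hep and 201, 195 and 189 CPM with PBS. KO ADP-Hep and KO PBS libraries overlapped, while the 3 WT ADP-Hep libraries stood far above all others. The log2 change was 0.11 ± 0.05 (SE) in KO cells, adjusted p = 0.129, and 1.504 ± 0.05 in WT cells, adjusted p = 1.8e-18. The interaction was 1.39 ± 0.07, adjusted p = 4.3e-14. Leaving out the unnumbered KO ADP-Hep library made the KO response 0.17, adjusted p = 0.026, and library totals made it 0.15, adjusted p = 0.0287.

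Slfn1, a short member that slows the growth of mouse thymocytes when overproduced, was rare. It had 20, 13 and 10 counts in KO ADP-Hep libraries and 7, 4 and 3 in KO PBS libraries, and 50, 58 and 35 in WT ADP-Hep and 9, 5 and 7 in WT PBS libraries. These were 0.840, 1.02 and 0.498 CPM in KO ADP-Hep, against 0.522, 0.240 and 0.242 CPM in KO PBS, and 2.04, 2.59 and 3.02 CPM in WT ADP-Hep, against 0.586, 0.356 and 0.297 CPM in WT PBS. The KO groups overlapped at one library each, and the WT groups did not overlap. The log2 change was 1.19 ± 0.45 in KO cells, adjusted p = 0.0464, and 2.62 ± 0.33 in WT cells, adjusted p = 1.37e-07.

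The KO call of Slfn1 was at the edge of detection. It was lost when any of 6 libraries was left out, KO ADP-Hep 1 or 3, KO PBS 2 or 3, WT ADP-Hep 2 or WT PBS 2, at adjusted p from 0.0575 to 0.173. DESeq2 (adjusted p = 0.0824) and limma-voom (0.0562) did not call it either. Its interaction was 1.42 ± 0.62, adjusted p = 0.0581, and was called with limma-voom and without KO ADP-Hep 3, WT ADP-Hep 1 or WT PBS 1, at adjusted p from 0.035 to 0.0447.

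Slfn4, the intermediate member, is known in mice from myeloid cells that suppress T cells in the inflamed stomach. It had 25, 13 and 16 counts in KO ADP-Hep libraries and 14, 16 and 12 in KO PBS libraries, and 115, 101 and 43 in WT ADP-Hep and 8, 10 and 22 in WT PBS libraries. As CPM these were 1.05, 1.02 and 0.797 in KO ADP-Hep, against 1.04, 0.959 and 0.967 in KO PBS, and 4.69, 4.50 and 3.71 in WT ADP-Hep, against 0.521, 0.712 and 0.934 in WT PBS. Both KO groups stayed near 1 CPM and overlapped, and the WT groups were far apart. The log2 change was -0.05 ± 0.29 in KO cells, adjusted p = 0.916, and 2.53 ± 0.22 in WT cells, adjusted p = 2.51e-10. Its interaction, 2.58 ± 0.38 with adjusted p = 3.37e-06, had the highest estimate of the 6. The sign of the KO change turned to 0.07 without the unnumbered library, also uncalled.

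Slfn5, a long member that in human cells acts in the nucleus on interferon-driven transcription, rose in both genotypes. It had 209, 235 and 179 CPM in KO ADP-Hep libraries, against 105, 137 and 121 CPM in KO PBS libraries. In WT cells it had 452, 493 and 408 CPM with ADP-Hep and 154, 138 and 142 CPM with PBS. The groups did not overlap in either genotype. Over all genes, 21.1% had all ADP-Hep libraries above the PBS libraries in KO cells, and 32.7% in WT cells. The log2 change was 0.77 ± 0.12 in KO cells, adjusted p = 0.000895, and 1.64 ± 0.12 in WT cells, adjusted p = 4.91e-07. The interaction was 0.87 ± 0.17, adjusted p = 0.00159.

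Slfn8, a long member close in sequence to Slfn9, had 69.0, 67.6 and 59.6 CPM in KO ADP-Hep libraries, against 34.6, 40.3 and 40.5 CPM in KO PBS libraries. In WT cells it had 132, 149 and 125 CPM with ADP-Hep and 38.0, 37.0 and 40.5 CPM with PBS. ADP-Hep libraries stood above PBS libraries in both genotypes, as for 21.1% of all genes in KO and 32.7% in WT cells. Slfn8 changed by 0.76 ± 0.08 in KO cells, adjusted p = 9.09e-08, and by 1.82 ± 0.07 in WT cells, adjusted p = 6.24e-16 (log2), and the interaction was 1.05 ± 0.11, adjusted p = 2.21e-08.

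Slfn9, the other member of that pair, had the lowest interaction estimate of the 6. It had 116, 117 and 111 CPM in KO ADP-Hep libraries, against 76.7, 85.1 and 88.2 CPM in KO PBS libraries. In WT cells it had 120.1, 128 and 103 CPM with ADP-Hep and 73.2, 70.9 and 77.7 CPM with PBS. ADP-Hep libraries lay above PBS libraries within each genotype, as for 21.1% of all genes in KO and 32.7% in WT cells. KO ADP-Hep and WT ADP-Hep libraries overlapped. On the log2 scale Slfn9 changed by 0.46 ± 0.07 in KO cells, adjusted p = 1.29e-05, and by 0.67 ± 0.07 in WT cells, adjusted p = 7.11e-09. The interaction was 0.21 ± 0.09, adjusted p = 0.0733, which does not show that the responses were alike. Without WT ADP-Hep 3, WT PBS 3 or KO PBS 1 it was 0.28, 0.25 and 0.26, with adjusted p of 0.00503, 0.0329 and 0.0301.

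Ratios of counts within a library do not depend on scaling. The ratio of Slfn8 to Slfn9 ranged from 0.536 to 0.593 with ADP-Hep and from 0.451 to 0.474 with PBS in KO cells. In WT cells it ranged from 1.10 to 1.22 with ADP-Hep and from 0.519 to 0.521 with PBS. That of Slfn2 to Slfn9 ranged from 1.39 to 1.53 with ADP-Hep and from 1.77 to 1.94 with PBS in KO cells, and from 4.48 to 5.21 with ADP-Hep and from 2.43 to 2.75 with PBS in WT cells. The ratio of Slfn2 to Slfn9 was thus lower with ADP-Hep than with PBS in KO cells and higher in WT cells, with no overlap between any groups. For Slfn8 over Slfn5 the ratio spanned 0.287 to 0.332 (KO ADP-Hep), 0.294 to 0.335 (KO PBS), 0.292 to 0.307 (WT ADP-Hep) and 0.246 to 0.285 (WT PBS), and the first 3 of these overlapped.

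**Figure D4:**
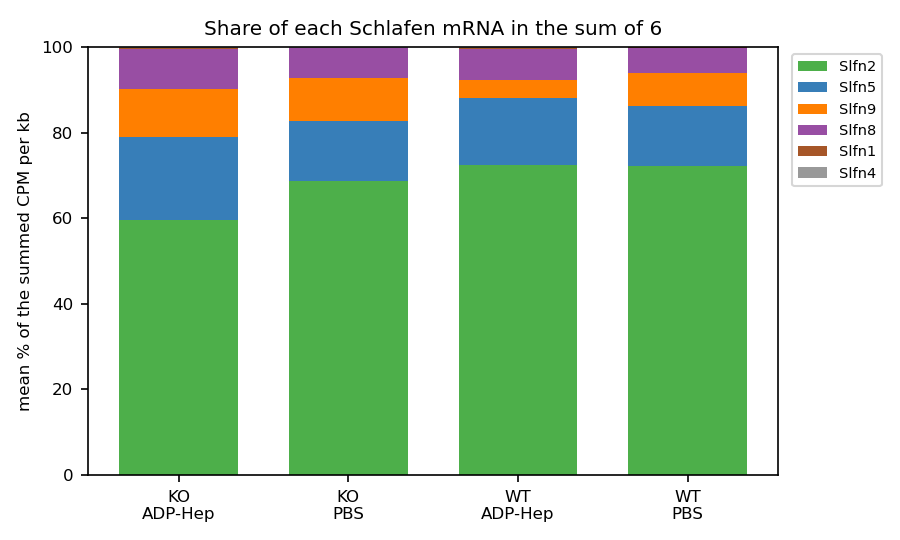
Mean share of each member, in percent, of the summed CPM per kb of the 6 members in KO ADP-Hep, KO PBS, WT ADP-Hep and WT PBS cells (n = 3 libraries each). Slfn2 makes up 59.7% in KO ADP-Hep and 72.4% in WT ADP-Hep cells, and Slfn9 11.3% and 4.28% of the same sums.

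The genotypes were also compared directly. Under ADP-Hep 5 of 6 members were called lower in KO than in WT cells, against 32% of all genes, at log2 changes of -2.19 ± 0.21 for Slfn4 (adjusted p = 1.25e-09), -1.71 ± 0.05 for Slfn2 (1.35e-19), -1.69 ± 0.28 for Slfn1 (1.12e-05), -1.12 ± 0.12 for Slfn5 (9.51e-06) and -1.06 ± 0.07 for Slfn8 (4.67e-12). Slfn9 was not called, at -0.04 ± 0.06, adjusted p = 0.628, and its sign turned under library totals (0.12) and without WT ADP-Hep 2 (0.03). Library totals also moved the split of all genes in this comparison, to 5609 higher and 2722 lower, against 4016 and 3929 with TMM, and the median of all genes to 0.17.

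With PBS, 1 of 6 members was called lower in KO cells, against 5.82% of all genes. That member was Slfn2, at 149, 164 and 156 CPM in KO PBS and 201, 195 and 189 CPM in WT PBS libraries, a log2 change of -0.31 ± 0.05 with adjusted p = 0.000206. The libraries of Slfn2 did not overlap, with KO below WT as for 14.5% of all genes. This also held for Slfn5, which was not called. For Slfn4, also uncalled, KO libraries lay above WT libraries with no overlap, as for 13.2% of all genes. The 5 uncalled members ran from -0.27 for Slfn1 to 0.39 for Slfn4, with adjusted p from 0.122 to 0.988. Slfn9, at 0.17 with adjusted p = 0.122, was called without WT ADP-Hep 3, at the same change and adjusted p = 0.0478. The WT ADP-Hep and WT PBS libraries used here also enter the WT response.

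The family genes outside the 6 were read the same way. Slfn3, a close copy of Slfn4 known from differentiation of the rodent gut epithelium, had 21.8, 23.1 and 21.4 CPM in KO ADP-Hep, against 12.98, 12.95 and 14.8 CPM in KO PBS, and 31.2, 37.1 and 32.6 CPM in WT ADP-Hep, against 15.4, 13.4 and 15.8 CPM in WT PBS. It rose by 0.70 ± 0.09 in KO cells and 1.17 ± 0.08 in WT cells (log2), adjusted p = 1.38e-06 and 2.68e-12. The summed counts of Slfn3 and Slfn4, most of them from Slfn3 (574 against 42 counts over the KO PBS libraries), rose by 0.66 in KO and 1.27 in WT cells.

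The pseudogene Slfn10-ps moved in opposite directions. It had 15.5, 15.9 and 14.4 CPM in KO ADP-Hep, against 20.7, 22.8 and 22.9 CPM in KO PBS, and 47.2, 45.1 and 39.5 CPM in WT ADP-Hep, against 25.4, 26.7 and 25.2 CPM in WT PBS. Its log2 change was -0.54 ± 0.08 in KO cells, adjusted p = 1.25e-05, and 0.79 ± 0.07 in WT cells, adjusted p = 2.07e-10. The libraries were apart in both genotypes, lower in KO cells as for 20.9% of all genes and higher in WT cells as for 32.7%. Slfn10-ps shared 19.7% of its 50-base words and 7.84% of its 100-base words with another gene, mainly Slfn9. Its counts are uncertain to the extent that reads fell in these stretches. Summing Slfn10-ps with Slfn8 and Slfn9 gave 0.44 in KO and 1.10 in WT cells. Slfn14 had 0 counts in the KO libraries, 2 over the WT ADP-Hep and 1 over the WT PBS libraries, and Slfnl1 had 1 count in all, so neither could be tested.

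Interferon-stimulated genes were taken as a list of 36, of which the Schlafen genes are no part. In KO cells 34 of 36 were called higher with ADP-Hep, against 13.7% of all genes, with a median log2 change of 0.95. In WT cells 36 of 36 were called higher, against 31.9% of all genes, with a median of 1.73. The interaction was called positive for 32 of 36, against 24.6% of all genes, with a median of 0.89. Rsad2, an antiviral enzyme, rose by 1.26 ± 0.21 in KO and 3.31 ± 0.20 in WT cells, and Ifit2, an RNA-binding antiviral protein, by 1.30 ± 0.18 in KO and 2.79 ± 0.17 in WT cells. Slfn2 and Slfn4 lay at the low end of this range in KO cells, where Bst2 and Trim25 were the 2 uncalled genes of the list, at 0.00 and -0.08. No test was made of a difference between the members and the list.

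**Figure D5:**
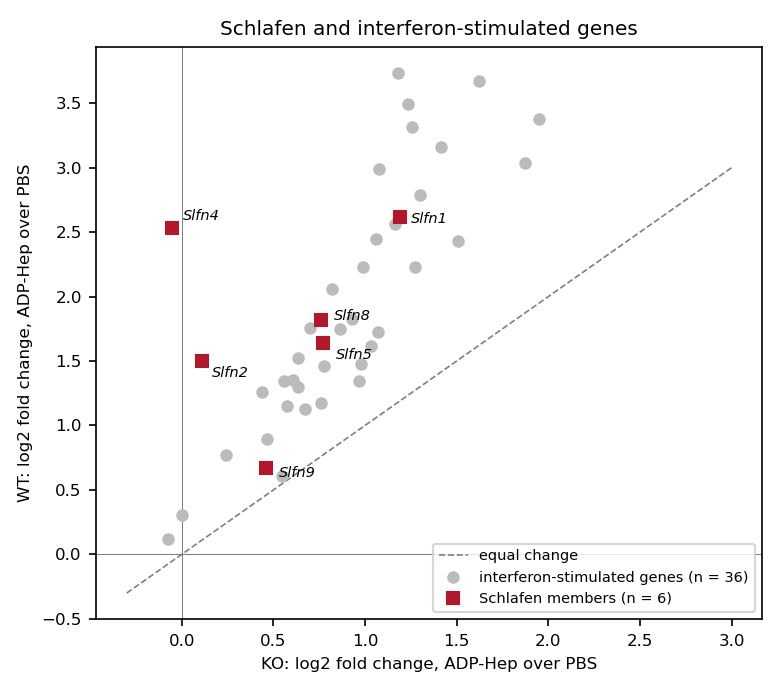
Log2 fold change of ADP-Hep over PBS in KO cells (x axis) against WT cells (y axis) for 36 interferon-stimulated genes (grey circles) and the 6 Schlafen members (red squares), with a dashed line of equal change. The members lie above the line, Slfn9 nearest to it at 0.46 in KO and 0.67 in WT cells, and Slfn2 and Slfn4 lie near 0 on the KO axis.

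Genes of interferon production and signalling were counted on a list of 22, of which 20 were tested. In KO cells 10 were called higher, against 13.7% of all genes, and 1 lower, against 15.3%, with a median of 0.09. In WT cells 18 were called higher, against 31.9% of all genes, and 1 lower, against 31.6%, with a median of 0.88. Irf1, a transcription factor of the interferon response, rose by 0.24 ± 0.07 in KO and 1.54 ± 0.07 in WT cells. Jak2, a receptor-associated kinase, rose by 0.20 ± 0.06 in KO and 1.57 ± 0.05 in WT cells. The KO call of Irf1 was lost without KO PBS 1, KO PBS 2 or KO ADP-Hep 3, at adjusted p from 0.0532 to 0.117. The interferon gene Ifnb1 was too rare to test, with 0 counts in KO libraries, 14 over the WT ADP-Hep and 1 over the WT PBS libraries. Of 11 genes of the pathway from Alpk1 to NF-kB, 1 was called higher and 1 lower in KO cells and 11 higher in WT cells. The shares of all genes are those given above. Among the 11 was Nfkbia, the NF-kB inhibitor, at 3.00 ± 0.06 in WT cells.

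A list of 14 genes that act on RNA cleavage or translation shared some genes with the interferon-stimulated list. In KO cells 8 of 14 were called higher, against 13.7% of all genes, and 3 lower, against 15.3%. In WT cells 9 were called higher, against 31.9% of all genes, and 5 lower, against 31.6%. N4bp1, a ribonuclease that restrains inflammatory signalling, rose by 0.34 ± 0.05 in KO and 1.64 ± 0.05 in WT cells (log2). Zc3hav1, an antiviral protein that binds RNA, rose by 0.35 ± 0.05 in KO and 0.71 ± 0.05 in WT cells. Both genes named here rose, and they do not stand for the genes of the list that were called lower.

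Genes beside the cluster were counted in the same way. Of 15 protein-coding genes within 300 kb, 9 were tested. In KO cells 2 were called higher, against 13.7% of all genes, and 1 lower, against 15.3%, with a median of 0.06. In WT cells 5 were called higher, against 31.9% of all genes, and 1 lower, against 31.6%, with a median of 0.22. Lig3, a DNA ligase, rose by 0.36 ± 0.07 in KO and 0.53 ± 0.06 in WT cells. The highest neighbour was Mmp28, a metalloprotease, at 1.32 ± 0.42 in KO cells, and Nle1, which acts in ribosome assembly, at 0.77 ± 0.13 in WT cells. The call of Mmp28 was lost without KO ADP-Hep 1, the unnumbered KO ADP-Hep library or KO PBS 3, at adjusted p from 0.0535 to 0.12.

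Genes nearest in pattern were sought by the root mean square difference of 3 log2 changes against WT PBS, of KO ADP-Hep, KO PBS and WT ADP-Hep, on group means over 12 libraries of log2(CPM + 0.5), among 9468 genes with at least 5 CPM. These are descriptions with no test, and each value is that difference in log2 units. The added 0.5 CPM shrinks the changes of rare genes, as for Slfn1, whose WT change is 1.74 on this scale and 2.62 in the fitted model, so no nearest genes are given for Slfn1 and Slfn4. Slfn2 was nearest to Pid1 (0.07), Mcemp1 (0.08) and Dst (0.08), and Slfn5 to Phf11b (0.06), Chst7 (0.08) and Ccdc86 (0.09). Of these, Phf11b is on the list of interferon-stimulated genes. For Slfn8 the genes were Igtp (0.10), Tmem132a (0.11) and Xaf1 (0.12), of which Igtp and Xaf1 are known interferon-stimulated genes, and for Slfn9 Etv6 (0.05), Gm6977 (0.07) and Slc7a7 (0.08). Among the 4 abundant members the nearest pair was Slfn5 and Slfn8 (0.23), and the farthest Slfn2 and Slfn9 (0.74), while Slfn8 and Slfn9 differed by 0.67.

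Markers of other cell types were present at different levels. Neutrophil markers summed to 169 to 179 CPM in KO ADP-Hep and 242 to 271 CPM in KO PBS libraries, while the sums were 201 to 224 CPM with ADP-Hep and 206 to 227 CPM with PBS in WT libraries. With ADP-Hep 5 of 8 tested neutrophil genes were called lower in KO cells, against 15.3% of all genes. In WT cells 3 were called higher, against 31.9% of all genes, and 1 lower, against 31.6%. Csf3r, a growth factor receptor and the most abundant of them, fell in both genotypes, with log2 changes of -0.61 ± 0.07 in KO and -0.58 ± 0.08 in WT cells. Ngp, a granule protein, changed by -0.61 ± 0.08 in KO and 0.29 ± 0.07 in WT cells, and S100a9, a calcium-binding protein, by -0.64 ± 0.16 in KO and 0.42 ± 0.15 in WT cells. S100a8, the partner of S100a9, was not called in either, at -0.27 ± 0.18 in KO and 0.36 ± 0.17 in WT cells. The WT call of S100a9 was lost without WT ADP-Hep 1 or 2 or WT PBS 1 or 2, at adjusted p from 0.0525 to 0.106, and under library totals, at 0.31 with adjusted p = 0.1. The defining neutrophil gene Ly6g had 2 counts over the KO ADP-Hep libraries, 1 over those of KO PBS, 8 over those of WT ADP-Hep and 6 over those of WT PBS. Lymphocyte markers summed to under 5 CPM in every library, with Cd3e, Pax5 and Ncr1 among those at 0, and dendritic and stromal markers to at most 2.57 and 2.28 CPM. The red-cell and platelet list summed to 232 to 241 CPM with ADP-Hep and 228 to 245 CPM with PBS in KO cells, and to 318 to 323 CPM with ADP-Hep and 251 to 274 CPM with PBS in WT cells. Nearly all of it was Pf4, a platelet chemokine, which averaged 236 ± 5.02 CPM in KO ADP-Hep, 235 ± 8.93 in KO PBS, 320 ± 2.89 in WT ADP-Hep and 259 ± 12.5 in WT PBS libraries (SD, n = 3). Its log2 change was 0.01 ± 0.05 in KO cells, adjusted p = 0.904, and 0.30 ± 0.04 in WT cells, adjusted p = 1.95e-06, while Hba-a1 and Hbb-bs were at 0. The part of these cells in the Schlafen levels was not tested, and in bulk RNA fewer cells of a type and less RNA per cell cannot be told apart.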

How the data were processed

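RNA of 12 mouse BMDM libraries was measured in 4 groups of 3. The authors deposited raw counts per gene, whole numbers that were not normalized. Per the labels' protocols, a stranded mRNA kit was used on total RNA. The submitters' processing notes name STAR, featureCounts, RSEM, FastQC, Trim Galore and DESeq2, and the builds mm10 and hg38. Which of them made the counts, with which version and strand setting, is not given in the sources used here.

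Below row 37642 the KO columns sat 1 row below the gene names (correlation of WT and KO 0.042, against 0.979 with KO moved up 1 row and 0.996 above). With a margin of 100 rows, 37542 rows were used and 19207, which include 1 row with no gene name, were not used; library sizes count the rows used. One column matched no label by number and has no replicate number.

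Counts were scaled by TMM and filtered by filterByExpr in edgeR 4.0.16 (R 4.3.3, limma 3.58.1), which left 12261 genes, and 1 robust quasi-likelihood model was fitted to all 12 libraries. Calls used a Benjamini-Hochberg adjusted p under 0.05 over all genes tested. The SE was taken as the size of the log2 change divided by the square root of F. Levels are CPM on TMM-scaled library sizes, also per kb of exon (GENCODE release 21). Genes named were Alpk1, the family, up to 4 most abundant genes of each list (up to 4 more with the smallest p for interferon lists), 3 nearest patterns a member (given for 4 members) and protein-coding neighbours within 300 kb; values of other genes were chosen after they were seen. Members and lists were chosen with earlier results of these data known. Motifs and identities were found with Python 3.11.15 and Biopython 1.88. Some genes of the lists are counted but not reported here by name. The tests were checked on simulated data. Alternatives were DESeq2 1.42.0 size factors and Wald test, library totals, limma-voom, other filters and subsets, no robust estimation, glmTreat at 1.5-fold, all rows, close copies summed, a replicate block and each library left out. Intervals of counting error were not computed, and counts without molecular identifiers are not independent molecules.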

Additional observations from a re-analysis of the deposited data

Results flagged for a closer look

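The responses to ADP-Hep differed between the genotypes by the interaction test (WT response minus KO response, log2, edgeR, adjusted p under 0.05 for each gene named here). For Schlafen genes the difference was 2.58 for Slfn4, 1.39 for Slfn2, 1.33 for Slfn10-ps, 1.05 for Slfn8, 0.87 for Slfn5 and 0.47 for Slfn3. Among interferon-stimulated genes it was 2.05 for Rsad2, 1.49 for Ifit2, 1.40 for Parp14, 1.05 for Phf11b, 0.93 for Rtp4, 0.78 for Ifih1 and 0.75 for Samd9l. For genes of interferon signalling it was 1.37 for Jak2, 1.30 for Irf1 and 0.52 for Irf5. Among genes of the list on RNA cleavage and translation it was 1.30 for N4bp1 and 0.37 for Zc3hav1, and for the neutrophil genes 1.06 for S100a9 and 0.90 for Ngp. Genes outside the family were picked by abundance or p of the WT response and given only if called in both responses. They are therefore no ranking of their lists. The interaction was called positive for 24.6% and negative for 24.9% of all genes. On the list on RNA cleavage and translation it was called positive for 7 and negative for 4 of 14 genes, and on that of interferon signalling for 18 and 1 of 20. Each group had 3 libraries, so single libraries were not tested for distance from their group.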

How the results depend on the processing

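With glmTreat against a 1.5-fold change the counts of called genes were 2138 for the WT response, 167 for the KO response, 1526 for the interaction, 31 for KO against WT under PBS and 2204 under ADP-Hep, and Slfn9 in WT cells, Slfn1, Slfn5, Slfn8 and Slfn9 in KO cells, the Slfn5 interaction and Slfn2 under PBS were not called. KO against WT under PBS gave 829 genes without KO PBS replicate 1 and 3150 with all rows as deposited, against 1397. Leaving out 1 library gave 7144 to 7865 genes for the WT response, 2585 to 3841 for the KO response, 5546 to 5967 for the interaction, 829 to 1565 for KO against WT under PBS and 7273 to 8156 under ADP-Hep. The cause was not tested.

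Replicate numbers are not stated to pair the libraries. Same-numbered deviations correlated at -0.398 to 0.212 over 15 pairs (median 0.083), and those of 39 other pairs at -0.251 to 0.324 (median -0.019). With 3 libraries a group these correlations cannot exclude pairing. With the replicate block on the 11 numbered libraries, 7697, 2583, 5559, 1227 and 7308 genes were called in the WT response, the KO response, the interaction and KO against WT under PBS and under ADP-Hep; without the block on the same libraries, chosen after the data were seen, these were 7747, 2757, 5721, 1288 and 7490. Signs turned only for uncalled changes, except those of summed copies. The KO response of Slfn4 was 0.0733 with the block and 0.0721 without it on those libraries, and -0.157 to 0.0721 with 1 library left out. KO against WT under ADP-Hep for Slfn9 was 0.118 with library totals, 0.00877 with the block and -0.113 to 0.0282 with 1 library left out (without WT ADP-Hep replicates 3 and 2). Under PBS it was 0.00199 for Slfn8 with the 1 CPM filter and -0.0433 to 0.0659 with 1 library left out, and -0.713 to 0.0425 for Slfn1 with 1 library left out. Close copies summed gave 0.66 for Slfn4 with Slfn3 and 0.44 for Slfn10-ps with Slfn8 and Slfn9 in the KO response, and -0.116 for Slfn4 and 0.0582 for Slfn8 and Slfn10-ps in KO against WT under PBS. Depth limits Slfn1 and Slfn4, with 14 to 143 and 40 to 259 counts a group.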
